A study of Cucumis x hytivus and Cucumis hystrix and Cucumis sativus with 8 samples.

Results

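Small RNAs of young and mature leaves were compared within a synthetic allotetraploid, Cucumis ×hytivus, a plant made by crossing the wild C. hystrix with the cucumber C. sativus and doubling the chromosomes. The comparison took 4 of the 8 libraries of the study, which were chosen by their titles: 2 of young leaf and 2 of mature leaf, numbered 1 and 2 in each group. Young leaves were those nearest the top of the plant, and mature leaves were the uppermost that had reached full size. Both came from plants of the 10th selfed generation (S10), raised in climate chambers with 14 h of light and 10 h of dark at 25 and 20 °C and potted on day 20 after sowing. Leaf age and position on the plant therefore differed together and cannot be told apart. Nothing states that the 2 libraries of a group came from separate plants, and the p-values therefore rest on library-to-library spread that could be technical in origin. The other 4 libraries of the study, from mature leaves of the parents, entered only an alternative fit. In bulk leaf samples, fewer cells of a type and less RNA per cell cannot be told apart.

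The table listed 733 mature sequences of 18 to 25 nt, here called entries. Of these, 446 carried the number of a known miRNA family (128 families) and 287 were predicted entries with names that begin with PC. The libraries held 464306 and 377442 listed reads in young leaves, and 207032 and 378234 in mature leaves, with each sequence counted once. Values are given in CPM, counts per 1000000 reads of a library size scaled by TMM (trimmed mean of M-values). The 201 entries with enough reads were tested, which covered 99.58% or more of every library. The Spearman correlation over these entries was 0.934 between the young libraries and 0.865 between the mature libraries, against 0.702 to 0.719 across the groups. The table holds no protein-coding gene, so leaf identity could not be checked on protein-coding markers.

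Plant miRNAs are cut from a hairpin precursor as a duplex of a 5p and a 3p arm. The guide strand is loaded into an ARGONAUTE protein and guides the cleavage or the repression of messages with a near-complementary site, while the other strand is usually degraded. In leaves, miR156 holds down the SPL factors that promote adult traits, and miR166 limits the HD-ZIP III factors of the upper leaf face. miR396 limits growth-regulating factors. miR397, miR398 and miR408 accumulate when copper is scarce and act on messages of copper proteins.

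The sequences that carry the main differences are shown 5′ to 3′ as the table lists them, with T in place of U and the seed (bases 2 to 8) in capitals. The 4 entries below belong to the copper-linked families and were lower in young leaves.
miR397: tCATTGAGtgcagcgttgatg
miR398a: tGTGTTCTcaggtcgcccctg
miR408: aTGCACTGcctcttccctggc
miR408-5p: cGGGGAACagacagagcatga

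The next entries belong to miR156 and were also lower in young leaves. miR156f and miR156a variant 2 share the seed GACAGAA. The last of them, miR156i-p3, lies on the arm opposite a miR156.
miR156b: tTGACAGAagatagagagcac
miR156f: tGACAGAAgatagagagcact
miR156a variant 2: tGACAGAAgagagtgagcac
miR156i-p3: tAGTATGTgctcatttctcttt

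Entries higher in young leaves are shown next. miR171d-p5 and miR171g-p5 share the seed GATGTTG.
miR390a: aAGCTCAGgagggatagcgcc
miR171e-p5: tATTGGTCcggttcactcaga
miR171d-p5: aGATGTTGgtccggttcaata
miR171g-p5: cGATGTTGgggcagttcaatc
miR171a: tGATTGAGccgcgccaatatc
miR166e-5p: aATGTTGGctggctcgaggct
miR166g-5p: gGAATGTTggctggctcgagg
miR530b: tGCATTTGcacctacaccttc
PC-108-5p: aTAGACTTgtatcgctgatggact

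The last set is miR396, where entries of 1 family differed in opposite directions. miR396b and miR396e differ by A7G, counted from 1 at the 5′ end, a position inside the seed.
miR396e: tTCCACGGctttcttgaactg
miR396b: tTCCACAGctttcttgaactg
miR396e-p3: gTTCAATAaagctgtgggaag

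Young leaves had less of 5 of the 7 copper-linked entries tested and of 7 of the 12 miR156 entries tested. They had more of miR390a, of 4 entries of miR171 and of 2 entries from the 5p arm of miR166. Of the 201 entries tested, 43 passed the threshold of 0.05 on the adjusted p of edgeR's quasi-likelihood test (21.4% called), with 13 higher in young leaves (6.47%) and 30 lower (14.9%). The young and mature libraries did not overlap in any of these 43, and 40 of the 43 had a read in all 4 libraries. The groups also did not overlap in 125 of all 201 entries (62.2%), 65 of them higher (32.3%) and 60 lower (29.9%). All 43 entries kept their direction in each alternative, of 15 run, that tested them. Groups that do not overlap leave little room for a change of sign, so this is no measure of stability. The number called varied, with 19 of the 43 past the threshold in 10 or more alternatives. Without young 1, edgeR called 0 entries (23 at an unadjusted p under 0.05), and without young 2 it called 11. Without mature 1 it called 68 and without mature 2 it called 91. With libraries scaled to the conserved families 0 entries were higher and 5 lower, and in a fit of all 8 libraries 0 were higher and 4 lower.

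**Figure D1:**
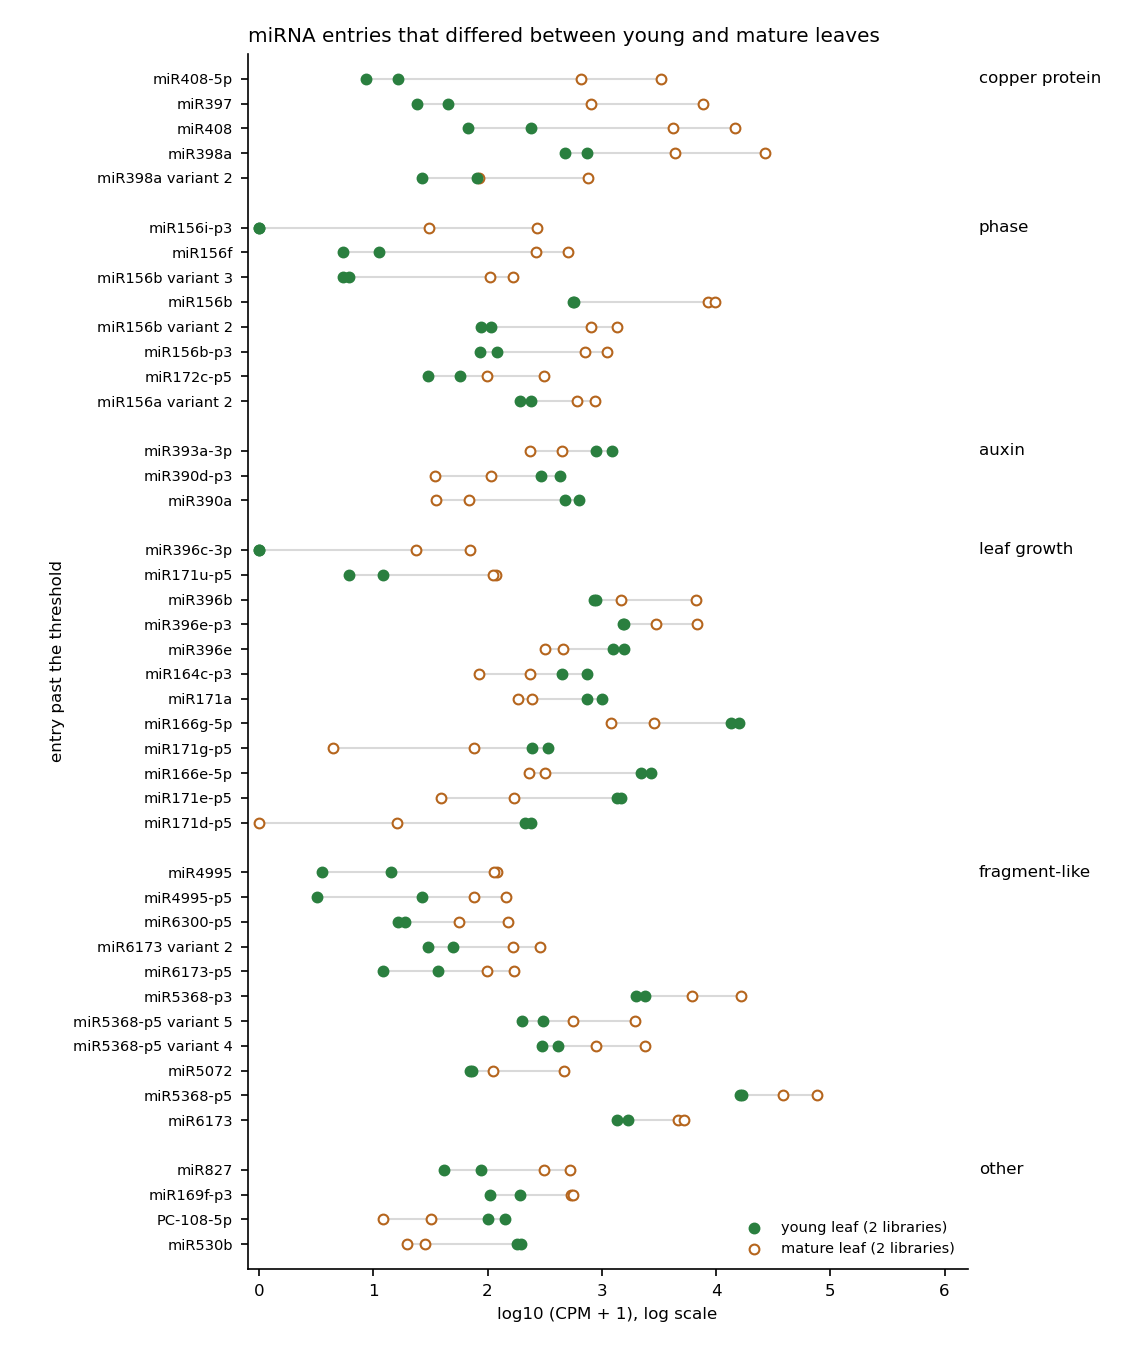
Levels of the 43 entries past the threshold, as log10 (CPM + 1), with 1 point per library (filled for young leaf, open for mature leaf) and entries grouped by list. In every entry the 2 young libraries lie on 1 side of the 2 mature libraries, by a wide gap for miR408-5p, miR397 and miR156f and by a narrow one for miR398a variant 2.

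Most copper-linked entries tested were far lower in young leaves. The list of families that act on copper proteins (miR397, miR398, miR408, miR857) had 15 entries listed and 7 tested. Of these 7, 5 fell and 0 rose (71.4% called, against 21.4% over all entries). The median log2 fold change of the 7 was −4.68, against +0.18 over all 201 entries. miR408, which acts on messages of plantacyanin and other small blue copper proteins, was at 240.6 and 66.67 CPM in young leaves, against 14570 and 4211 CPM in mature leaves. Both mature libraries lay far above both young ones, and the log2 fold change was −5.93 (SE 0.87, adjusted p = 0.00067). The opposite arm, miR408-5p, from the same interval (chromosome 5, 20905079 to 20905292, plus strand), was at 15.59 and 7.693 CPM in young leaves, against 3307 and 660.5 CPM in mature leaves (−7.35, SE 0.93, adjusted p = 0.00025). miR408 thus fell on both arms of its precursor.

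miR397, which acts on laccase messages, was at 44.55 and 23.08 CPM in young leaves, against 7701 and 798.1 CPM in mature leaves (−6.95, SE 1.05, adjusted p = 0.00067). It is listed on chromosome 1 at 7211715 to 7211804, plus strand. miR398a, of a family that acts on Cu/Zn superoxide dismutase messages, was at 744 and 477 CPM in young leaves, against 27060 and 4341 CPM in mature leaves (−4.68, SE 0.84, adjusted p = 0.0018). miR398a variant 2 is the sequence of miR398a without its last G, so the 2 entries are not independent. The variant was at 80.19 and 25.64 CPM in young leaves, against 759.2 and 82.56 CPM in mature leaves (−2.97, adjusted p = 0.038). Its higher young library nearly met the lower mature one. Another entry, miR398b, was at 414.3 and 333.4 CPM in young leaves, against 405.9 and 247.7 CPM in mature leaves, with overlapping libraries (+0.20). Its opposite arm, miR398b-p5, was higher in young leaves without overlap and was not called (+1.28). The fall was thus not shared by the miR398b precursor.

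The size of these falls varied with the mature library. In the 5 copper-linked entries that fell, mature 1 was 3.46 to 9.65 times mature 2, whereas over 175 tested entries this ratio had a median of 0.784 and, leaving 5% at each end, ran between 0.211 and 4.19. The summed share of the list was 0.155% and 0.102% of reads in young leaves, against 6.94% and 0.801% in mature leaves. Without mature 1 the log2 fold changes were −2.73 for miR398a, −4.43 for miR397, −4.68 for miR408 and −5.66 for miR408-5p, and without mature 2 they were −5.53, −7.86, −6.62 and −8.14. Without young 1 none of the 5 was called (adjusted p 0.24 or higher), and each other library left out kept 4 of them. miR398a variant 2 was the entry lost without young 2 (adjusted p = 0.31) and without mature 1 (0.62), and miR408 the entry lost without mature 2 (0.13). Scaling to the conserved families called 0 of the 5, and a fit without the fragment-like families described below called 2.

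Of the regulators of the passage from juvenile to adult leaves (miR156, miR157 and miR172), 8 of 18 tested entries fell and 0 rose (40 listed). This is 44.4% called, against 21.4% over all entries. The median log2 fold change was −1.33, against +0.18 over all entries. In miR156 alone, 7 of 12 tested entries fell (58.3% called) and 11 of 12 had a log2 fold change below 0. miR156b was at 554.7 and 571.9 CPM in young leaves, against 8456 and 9722 CPM in mature leaves. The libraries of a group were close to each other and far from those of the other group (−4.01, SE 0.58, adjusted p = 0.00025). It is listed on chromosome 1 at 2522424 to 2522602, plus strand, together with miR156b-p3, the opposite arm. That arm was at 120.3 and 84.62 CPM in young leaves, against 710.3 and 1121 CPM in mature leaves (−3.15, adjusted p = 0.0011), so both arms fell.

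miR156f was at 4.455 and 10.26 CPM in young leaves, which is 2 and 4 reads, against 263.1 and 502.3 CPM in mature leaves (−5.66, SE 0.79, adjusted p = 0.00025). miR156b variant 2 was at 106.9 and 87.19 CPM in young leaves, against 808 and 1349 CPM in mature leaves (−3.47). miR156b variant 3, which differs from variant 2 by G3T, was at 4.455 and 5.129 CPM in young leaves, against 105.2 and 165.1 CPM in mature leaves (−4.72). By sequence, miR156f is variant 2 without its first T, and miR156b is variant 2 without its last T. The fall was thus shared by near-identical length and sequence variants, at levels that differed widely. These entries do not count as independent of each other. miR156i-p3 had no whole read in either young library, against 8 and 78 reads in mature leaves. With the mature libraries pooled, it was at least 43.2-fold lower, with a floor of 3 reads over the young libraries together (adjusted p = 0.0039). This bound rests mostly on mature 2, and the entry was not tested without mature 2.

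Other entries of the family had fold changes nearer to 0. miR156a, one of its most abundant entries, was at 1566 and 1675 CPM in young leaves, against 4232 and 4833 CPM in mature leaves, and did not pass the threshold (−1.48, adjusted p = 0.051), although the groups did not overlap. miR156a variant 2 was at 191.6 and 238.5 CPM in young leaves, against 864.4 and 608.9 CPM in mature leaves (−1.78, adjusted p = 0.034). The arms opposite other miR156 precursors, miR156c-p3 and miR156j-p3, were both at −0.02 with overlapping groups. miR172 acts on AP2-like factors and, in Arabidopsis, increases with plant age as miR156 declines. Of its 6 tested entries, miR172c-p5 fell, at 28.96 and 56.42 CPM in young leaves, against 97.71 and 309.6 CPM in mature leaves (−2.25, adjusted p = 0.034). miR172b was at 153.7 and 146.2 CPM in young leaves, against 233 and 364.7 CPM in mature leaves (−0.99, adjusted p = 0.27), and miR172b-p5, an opposite arm, at 80.19 and 112.8 CPM in young leaves, against 41.34 and 27.52 CPM in mature leaves (+1.48, adjusted p = 0.22). Without young 1 none of the 8 entries of the list was called (adjusted p 0.24 or higher), and without young 2 the 3 that remained were all miR156. miR172c-p5 was also lost without mature 2 (0.21).

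miR390, which triggers the TAS3 small RNAs that limit auxin response factors, rose in young leaves. miR390a was at 637.1 and 474.4 CPM in young leaves, against 67.65 and 34.4 CPM in mature leaves (+3.44, SE 0.63, adjusted p = 0.00099). The opposite arm, miR390d-p3 (chromosome 4, 13051828 to 13051937, plus strand), was at 427.7 and 292.3 CPM in young leaves, against 33.82 and 106.6 CPM in mature leaves (+2.35, adjusted p = 0.019). Both young libraries exceeded both mature libraries on each arm, and the mature libraries differed from each other in opposite order on the 2 arms. Of the other auxin families, which act on auxin response factors (miR160, miR167) and on auxin receptors (miR393), miR393a-3p rose, at 895.5 and 1231 CPM in young leaves, against 236.8 and 450.7 CPM in mature leaves (+1.63, adjusted p = 0.046). The entry of that name without an arm mark, miR393a, was at 40.1 and 61.55 CPM in young leaves, against 67.65 and 151.4 CPM in mature leaves (−1.11, adjusted p = 0.32). miR160a was at +0.74 and miR167d at −0.17, neither past the threshold. Over the auxin list, 3 of 18 tested entries rose and 0 fell (42 listed), with a median of +0.45, so the share called was 16.7%, against 21.4% over all entries. Without young 1 none of the 3 was called (adjusted p 0.24 or higher), and without young 2 miR390a alone was (0.041).

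The families that act on leaf growth and form (miR159, miR319, miR396, miR164, miR165, miR166, miR170, miR171) had 48 of 101 entries tested, of which 8 rose and 4 fell, with a median of +0.54. The share called was 25.0%, against 21.4% over all entries. miR171 restrains GRAS factors of the HAM/SCL group, which maintain meristems. Of its 12 tested entries, 4 rose and 1 fell (41.7% called, against 21.4% over all entries). miR171e-p5 was at 1361 and 1480 CPM in young leaves, against 169.1 and 37.84 CPM in mature leaves (+3.78, SE 0.68, adjusted p = 0.00099). miR171d-p5 was at 213.8 and 241.1 CPM in young leaves, against 15.03 and 0 CPM in mature leaves, which is 4 reads and none (+4.90, SE 0.92, adjusted p = 0.0011). miR171g-p5 was at 336.4 and 246.2 CPM in young leaves, against 75.16 and 3.44 CPM in mature leaves (+2.90, adjusted p = 0.038). All 3 lie on the 5p arm, opposite the strand that usually acts. The mature libraries differed widely in miR171g-p5, whose log2 fold change was 6.36 without mature 1 and 1.89 without mature 2. That of miR171d-p5 was 3.84 without mature 2, while mature 2 alone had 0 reads of it. None of these 3 was called with library size only or with scaling to the conserved families. Nor were they called in the fit of all 8 libraries or without the fragment-like families. miR171g-p5 was also not called with RLE scaling or DESeq2.

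The 3p strand itself rose in miR171a, listed at 3 loci, which was at 995.7 and 738.5 CPM in young leaves, against 184.2 and 244.3 CPM in mature leaves (+2.01, adjusted p = 0.017). The closely related miR171c, which differs from miR171a by C12T, was at 1083 and 815.5 CPM in young leaves, against 552.5 and 770.6 CPM in mature leaves (+0.52) and did not pass the threshold. The miR171 entry that fell was miR171u-p5, of 18 nt, at 11.14 and 5.129 CPM in young leaves, against 116.5 and 110.1 CPM in mature leaves (−3.72, SE 0.92, adjusted p = 0.0099). An entry from an overlapping interval of chromosome 1, miR171c-p5, was at 11.14 and 0 CPM in young leaves, against 37.58 and 103.2 CPM in mature leaves, and was not called (−3.53).

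Of the 13 tested entries of miR166, 12 had a log2 fold change above 0. Without overlap, 9 were higher and 1 lower (32.3% and 29.9% over all entries). From the 5p arm 2 entries rose, a share called of 15.4%, against 21.4% over all entries. miR166g-5p was at 15840 and 13480 CPM in young leaves, against 2852 and 1204 CPM in mature leaves (+2.85, SE 0.60, adjusted p = 0.0029). miR166e-5p was at 2691 and 2211 CPM in young leaves, against 319.4 and 230.5 CPM in mature leaves (+3.15, SE 0.54, adjusted p = 0.00067). Neither was called with scaling to the conserved families or in the fit of all 8 libraries. miR166g-5p was also not called with library size only or without the fragment-like families. Another 5p entry, miR166f-p5, was at 2762 and 2495 CPM in young leaves, against 1902 and 1149 CPM in mature leaves, and did not pass (+0.79, adjusted p = 0.34), nor did miR166g-5p variant 2 (+0.41, adjusted p = 0.87). On the 3p arm, miR166i-p3 was at 3807 and 3621 CPM in young leaves, against 1289 and 1665 CPM in mature leaves, and did not pass (+1.33, adjusted p = 0.082). miR166m-p3 (+0.75) and miR166g, which has no arm mark (+0.75), were higher without overlap and not called either. The 3p strand that acts on HD-ZIP III messages, miR166a, was the most abundant entry, at 519100 and 393000 CPM in young leaves, against 300300 and 498400 CPM in mature leaves, with overlapping groups (+0.19). miR159a, which acts on GAMYB-like messages, was next at 279900 and 354100 CPM in young leaves, against 182600 and 476300 CPM in mature leaves (−0.06). It was the one among the named entries that had the opposite sign and passed the threshold when a library was left out, at +0.75 without mature 2 (adjusted p = 0.0061). In miR164, which limits NAC factors of the CUC group, miR164c-p3 rose, at 737.3 and 448.8 CPM in young leaves, against 233 and 82.56 CPM in mature leaves (+1.91, adjusted p = 0.038). The acting strand miR164a was at 338.6 and 369.3 CPM in young leaves, against 796.7 and 633 CPM in mature leaves (−1.01), and did not pass.

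In miR396, 1 of 7 tested entries rose and 3 fell (57.1% called, against 21.4% over all entries). miR396e was at 1247 and 1557 CPM in young leaves, against 315.7 and 461 CPM in mature leaves (+1.85, adjusted p = 0.022). miR396b was at 859.8 and 892.4 CPM in young leaves, against 1466 and 6719 CPM in mature leaves (−2.22, adjusted p = 0.027). The groups did not overlap in either entry, and the young libraries lay above the mature ones in miR396e and below them in miR396b. miR396e-p3 is listed at 2 loci, the precursors of miR396e and of miR396b. It was at 1577 and 1521 CPM in young leaves, against 2999 and 6846 CPM in mature leaves (−1.67, adjusted p = 0.044). miR396c-3p had no read in young leaves, against 6 and 20 reads in mature leaves, at least 13.1-fold lower (adjusted p = 0.034). Without young 1, and without young 2, none of the 4 was called (adjusted p 0.39 or higher), and miR396b was also lost without mature 2 (−0.80, adjusted p = 0.065). Over the whole leaf-growth list, 0 of the 12 entries were called without young 1 (0.24 or higher) and 3 without young 2, while 13 rose and 7 fell without mature 1, and 21 rose and 3 fell without mature 2.

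Outside these lists, miR530b rose, at 193.8 and 179.5 CPM in young leaves, against 18.79 and 27.52 CPM in mature leaves (+2.99, SE 0.68, adjusted p = 0.0052). Among families tied to the nutrient state, 2 of 11 tested entries fell and 0 rose (34 listed, median +0.58), a share of 18.2%, against 21.4% over all entries. miR827, which is induced by phosphate shortage and acts on SPX-domain transporter messages, was at 86.87 and 41.03 CPM in young leaves, against 308.2 and 526.3 CPM in mature leaves (−2.69, SE 0.62, adjusted p = 0.0058). miR169f-p3, from the arm opposite a miRNA that acts on NF-YA messages, was at 191.6 and 105.1 CPM in young leaves, against 541.2 and 564.2 CPM in mature leaves (−1.89, adjusted p = 0.028). miR395a, linked to sulfate shortage, was at 62.37 and 35.9 CPM in young leaves, against 127.8 and 34.4 CPM in mature leaves, with overlapping groups. None of these 3 called entries passed without young 1 (adjusted p = 0.31 for miR530b, 0.24 for miR827 and 0.35 for miR169f-p3) or without young 2 (0.21, 0.42 and 0.69). Of miR162 and miR168, which act on messages of DCL1 and AGO1, 0 of 4 tested entries were called by edgeR, DESeq2 or limma (0 at an unadjusted p under 0.05 in each). Of the families that act on resistance gene messages, 5 entries were listed and 0 had enough reads to be tested.

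Families that resemble fragments of longer RNA were lower in young leaves as well. Reads named for miR5368, miR2916, miR6173, miR4995, miR6300 and similar numbers match ribosomal, transfer or plastid RNA in many plants, and their standing as miRNAs is doubtful. Of 38 tested entries of this list (79 listed), 11 fell and 0 rose (28.9% called, against 21.4% over all entries), 36 had a log2 fold change below 0, and the median was −1.04, against +0.18 over all entries. miR5368-p5 was at 16990 and 16240 CPM in young leaves, against 38540 and 76670 CPM in mature leaves (−1.79, adjusted p = 0.042). miR5368-p3 was at 1983 and 2372 CPM in young leaves, against 6163 and 16540 CPM in mature leaves (−2.38, adjusted p = 0.01). miR6173 was at 1359 and 1705 CPM in young leaves, against 4656 and 5239 CPM in mature leaves (−1.69, adjusted p = 0.034). The summed share of the list was 6.01% and 6.66% in young leaves, against 17% and 11.5% in mature leaves. Since CPM are relative, this share moves with every other value given here, and its part in them was not tested. With the list left out before scaling, 4 entries rose and 10 fell of 161 tested, with the median over the shared entries lower by 0.29 log2 units, and 5 of the 8 phase entries and 2 of the 5 copper-linked entries were still called. Without young 1 and without young 2, none of the 11 was called (adjusted p 0.053 or higher).

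Marker lists of other tissue that a leaf sample can hold gave the following values. Families abundant in the shoot apex and leaf primordia (miR164, miR165, miR166, miR171, miR390, miR394) had 9 of 33 tested entries higher in young leaves and 1 lower (72 listed, median +0.75), namely the entries of miR164, miR166, miR171 and miR390 given above. The share called was 30.3%, against 21.4% over all entries, whose median was +0.18. No entry of miR165 was tested. Their summed share was 61.4% and 51% of listed reads in young leaves, against 45.1% and 44.4% in mature leaves. Nearly all of it was miR166, at 60.6% and 50.3% in young leaves, against 44.7% and 44.1% in mature leaves. In CPM the miR166 sum overlapped, at 648100 and 519400 in young leaves, against 309000 and 582000 in mature leaves. Families known from phloem sap (miR395, miR398, miR399, miR827, miR2111) had 0 of 8 tested entries higher and 3 lower (25 listed, median −0.26), a share of 37.5%, against 21.4% over all entries. The 3 that fell are miR398a, miR398a variant 2 and miR827, all described above. The list was split, with 4 of the 8 entries above 0 and 4 below. Without overlap, 3 were higher and 3 lower (32.3% and 29.9% over all entries). Among the higher ones, miR2111a was at 173.7 and 141 CPM in young leaves, against 90.2 and 61.92 CPM in mature leaves (+1.05, adjusted p = 0.29). The summed share of the list was 0.167% and 0.124% in young leaves, against 3.72% and 0.418% in mature leaves. Each of these 5 families had reads in all 4 libraries, and miR399 had 16 and 16 reads in young leaves, against 9 and 7 in mature leaves. The part of these tissues in the results was not tested.

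**Figure D2:**
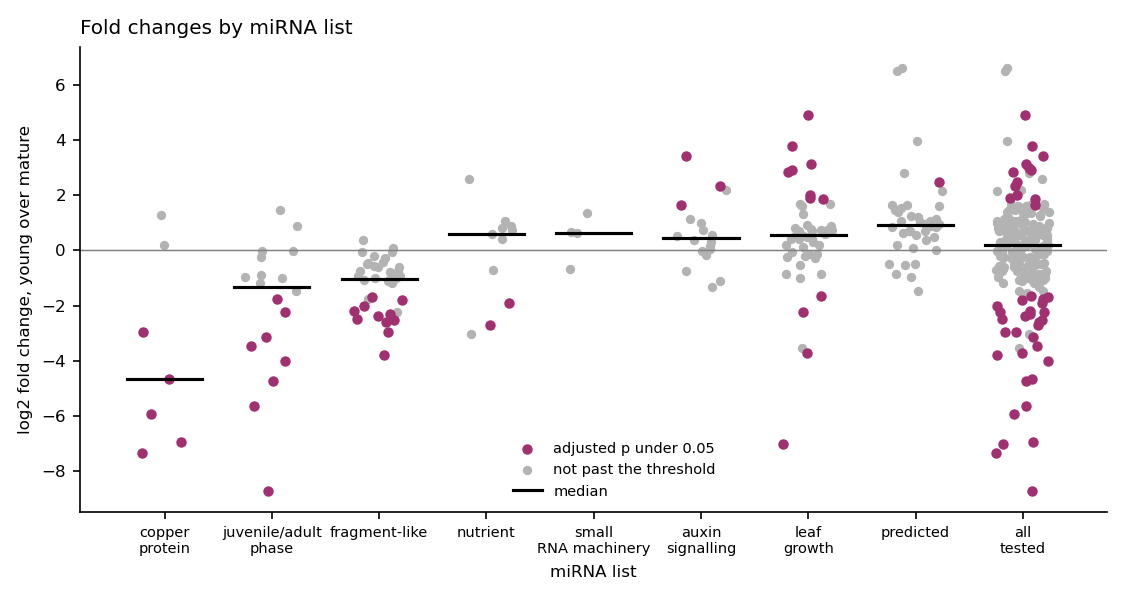
Log2 fold changes of young over mature leaf for the entries of each list, with 1 point per entry (coloured where the adjusted p was under 0.05, grey otherwise) and a bar at the median. The medians of the copper-protein list (−4.68), the phase list (−1.33) and the fragment-like list (−1.04) lie below 0, and that of the predicted entries (+0.93) lies above. The filter could admit a predicted entry through its young reads alone, and the part of this in the last median was not tested.

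Sums over all entries of a family gave fewer calls than single entries. Of 86 sums tested (46 families and 40 predicted entries alone), 9 were called (10.5%), with 3 higher in young leaves (3.49%) and 6 lower (6.98%). Of the 46 families alone, 2 were called higher and 6 lower. The 161 tested entries with a family number had 12 higher and 30 lower (26.1% called). The miR408 family was at 264.8 and 79.38 CPM in young leaves, against 15910 and 4944 CPM in mature leaves (−5.91, SE 0.79, adjusted p = 5.5e-05). The miR397 family was at 46.05 and 24.63 CPM in young leaves, against 6922 and 830.5 CPM in mature leaves (−6.75, SE 0.96, adjusted p = 0.00026). Both sums passed with each scaling tried, and without mature 2 the miR408 sum did not (adjusted p = 0.20). The miR398 family was at 1347 and 944.3 CPM in young leaves, against 25200 and 4798 CPM in mature leaves (−3.71, SE 0.71, adjusted p = 0.0014). The miR156 family was at 3373 and 3547 CPM in young leaves, against 14370 and 19940 CPM in mature leaves (−2.31, SE 0.54, adjusted p = 0.0054).

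The miR390 family rose, at 1232 and 886.8 CPM in young leaves, against 157.1 and 188.4 CPM in mature leaves (+2.61, SE 0.52, adjusted p = 0.0014). The other sums that rose were miR530 (+3.16, adjusted p = 0.0015) and PC-108-5p, and the others that fell were miR827 (−2.61) and the fragment-like miR4995 (−3.25). The miR171 sum was at 5086 and 4754 CPM in young leaves, against 1364 and 2101 CPM in mature leaves, and did not pass (+1.51, adjusted p = 0.072). The miR396 sum, whose entries differed in both directions, was at 5949 and 6093 CPM in young leaves, against 5261 and 15710 CPM in mature leaves (−0.80). The miR166 sum was at +0.39 and the miR172 sum at −0.61, neither past the threshold. The signs of the miR159 (+0.05), miR164 (+0.12) and miR167 (+0.05) sums changed with the scaling. Without young 1, edgeR called 0 sums (8 at an unadjusted p under 0.05) and without young 2 it called 2. It called 29 without mature 1 and 35 without mature 2.

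The balance between the 2 arms of a precursor was compared between young and mature leaves. Both arms were tested in 39 precursors, and balance was taken as log2 of 5p over 3p reads with 0.5 read added to each. The groups did not overlap in 26 (66.7%), near the 62.2% of single entries whose groups do not overlap, with a higher 5p share in young leaves in 15 (38.5%) and a lower one in 11 (28.2%). With 2 libraries against 2 the smallest two-sided exact permutation p is 0.333, so these values carry no test. The median difference was +0.51 log2 units. In 25 of the 39 precursors both arms had fold changes of the same sign.

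The precursor of miR171d-p5 and miR171b (chromosome 2, 21671424 to 21671514, plus strand) had a balance of −0.28 and 0.23 in young leaves, against −2.44 and −6.92 in mature leaves. The arms were thus near parity in young leaves and dominated by 3p in mature leaves, where miR171d-p5 had 4 and 0 reads. For miR166g-5p and miR166a variant 2 (chromosome 3, 6590348 to 6590448, minus strand), the balance was −0.11 and −0.31 in young leaves, against −2.66 and −4.00 in mature leaves. The 3p strand of that precursor was at 17130 and 16770 CPM in young leaves, against 18040 and 19250 CPM in mature leaves (−0.14), while its 5p strand rose, as given above. For miR164c and miR164c-p3 (chromosome 7, 15347573 to 15347656, minus strand) the order was the reverse, at −1.25 and −0.35 in young leaves, against 0.98 and 2.05 in mature leaves. In these 3 precursors each arm is listed at 1 locus.

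The predicted pair PC-24-5p and PC-24-3p (chromosome 2, 7590772 to 7591048, minus strand), also at 1 locus each, had a balance of −1.58 and −1.36 in young leaves, against −5.55 and −3.01 in mature leaves, where PC-24-5p had 0 and 9 reads. The precursor of miR408, where both arms fell, had a balance of −3.85 and −2.92 in young leaves, against −2.14 and −2.67 in mature leaves.

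In the next precursors 1 of the arms is listed at several loci, and its reads cannot be given to 1 precursor. miR396e against miR396e-p3 (chromosome 2, 1372154 to 1372315, minus strand) had a balance of −0.34 and 0.03 in young leaves, against −3.24 and −3.89 in mature leaves. The same 3p sequence is also listed in the precursor of miR396b (chromosome 1, 12055087 to 12055240, plus strand), where both arms fell. There the balance was −0.87 and −0.77 in young leaves, against −1.03 and −0.03 in mature leaves, with overlapping groups. miR156a variant 2 against miR156i-p3 (chromosome 2, 1701649 to 1701821, plus strand) had 7.43 and 7.55 in young leaves, against 4.76 and 1.18 in mature leaves. miR171c-p5 against miR171c (chromosome 1, 241218 to 241304, minus strand) had −6.47 and −9.32 in young leaves, against −3.81 and −2.88 in mature leaves. For miR172b-p5 against miR172b (chromosome 6, 10216876 to 10216978, minus strand) it was −0.93 and −0.37 in young leaves, against −2.44 and −3.65 in mature leaves.

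**Figure D3:**
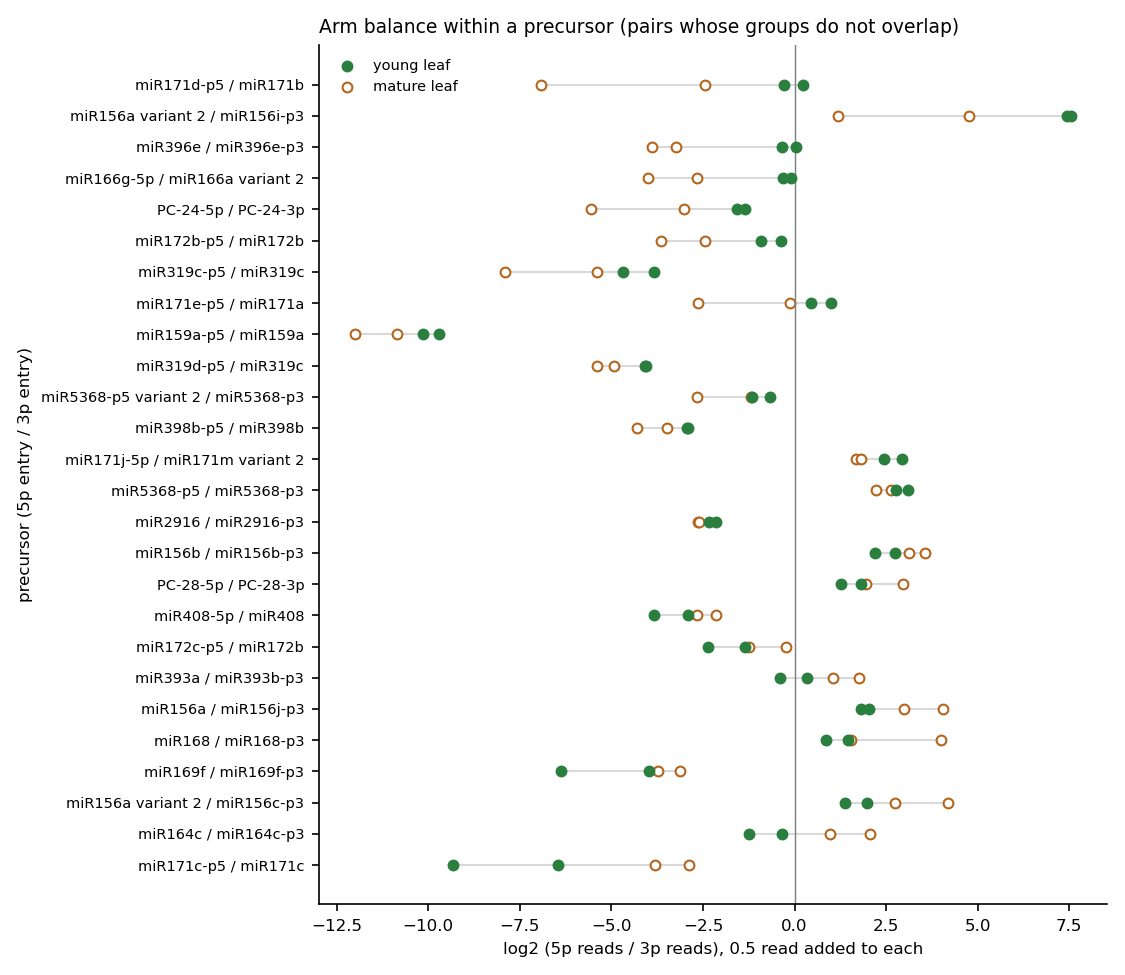
Balance of the arms, as log2 of 5p over 3p reads, in the 26 precursors whose young libraries (filled) and mature libraries (open) do not overlap. Points to the right have relatively more 5p reads. The first precursor shown, with the largest difference of group means (4.65), is that of miR171d-p5 and miR171b, at −0.28 and 0.23 in young leaves, against −2.44 and −6.92 in mature leaves.

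Predicted entries were found more often in young leaves, at low levels. Of the 287 listed, 240 and 212 had a whole read in the young libraries, against 91 and 116 in the mature libraries. At the depth of mature 1 (207032 reads), the expected numbers were 215 and 190 in young leaves, against 91 and 112 in mature leaves. Entries with a family number differed less at that depth, with 280 and 263 of 446 in young leaves, against 286 and 229 in mature leaves. Young 2 and mature 2 had nearly equal depth, at 377439 and 378223 whole reads, and showed 497 and 360 of the 733 entries. Predicted entries with a read in both young libraries and in no mature library numbered 83, against 1 in the opposite case. For entries with a family number these were 24 and 10. The sources used here do not say from which libraries the entries were predicted or how many reads one needed, and the part of that choice in these numbers was not tested.

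**Figure D4:**
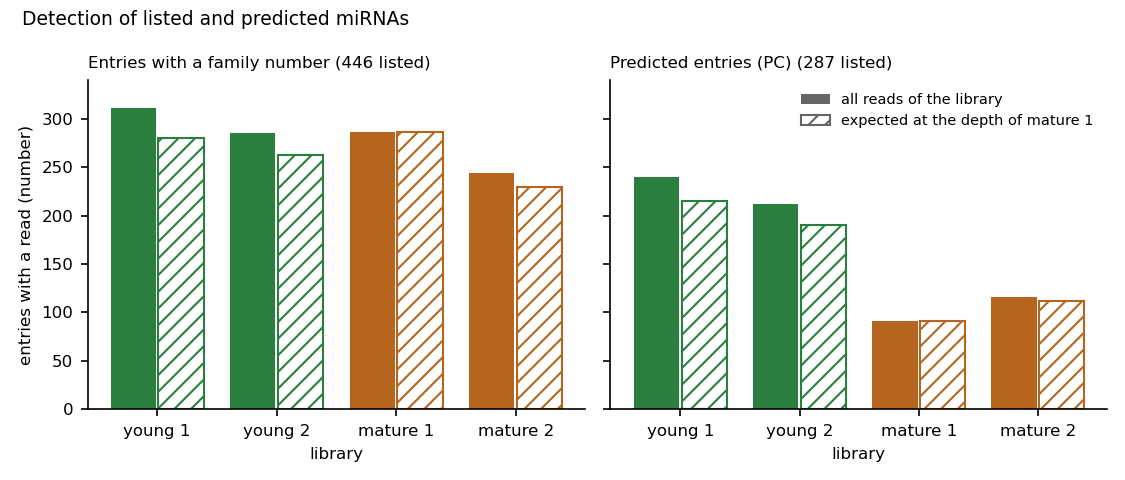
Number of entries with a whole read in each library, for the 446 with a family number and the 287 predicted ones, with all reads (solid) and the number expected at the depth of mature 1 (hatched). The predicted entries stand at 215 and 190 in young leaves, against 91 and 112 in mature leaves, at that depth, while the entries with a family number overlap between the groups.

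The summed share of the predicted entries was 0.88% and 0.604% of reads in young leaves, against 0.634% and 0.605% in mature leaves. The most abundant of them was PC-169-5p, at 3344 and 1475 CPM in young leaves, against 3243 and 3609 CPM in mature leaves (−0.51). Without it, the predicted entries summed to 5565 and 4512 RPM (reads per 1000000 listed reads) in young leaves, against 2171 and 3274 in mature leaves. Those of 24 nt, a length typical of plant small interfering RNAs that direct DNA methylation, numbered 105, and 96 and 89 of them had a read in young leaves, against 33 and 37 in mature leaves. They summed to 2967 and 2248 RPM in young leaves, against 1012 and 1252 in mature leaves. The 70 of 21 nt, the usual miRNA length, summed to 4481 and 2542 RPM in young leaves, against 4787 and 3593 in mature leaves. Predicted entries that begin with A summed to 2599 and 2174 RPM in young leaves, against 920 and 1413 in mature leaves, and those that begin with T to 4680 and 2626 RPM in young leaves, against 4968 and 3584 in mature leaves.

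Of the 287, 40 predicted entries had enough reads to be tested, of which 1 rose and 0 fell in edgeR (7 higher and 0 lower at an unadjusted p under 0.05), a share of 2.5%, against 21.4% over all entries. DESeq2 called 3 higher and 0 lower, and limma called 0 of either (5 higher and 0 lower at an unadjusted p under 0.05). Their median log2 fold change was +0.93, against +0.18 over all entries, and 33 of 40 were above 0. All 40 had a read in both young libraries, against 33 and 34 of them in the mature libraries. The filter could admit an entry through its young reads alone, as with PC-171-5p and PC-182-5p below. That favours positive values among entries with few reads, and its part in this median was not tested. The entry that rose, PC-108-5p, of 24 nt (chromosome 2, 13721110 to 13721458, minus strand), was at 100.2 and 141 CPM in young leaves, against 11.27 and 30.96 CPM in mature leaves (+2.48, SE 0.80, adjusted p = 0.038). It was not called without young 1 (0.45) or without young 2 (0.69). PC-171-5p had 15 and 14 reads in young leaves and none in mature leaves, at least 6.42-fold higher (adjusted p = 0.074). PC-182-5p had 14 and 13 reads in young leaves and none in mature leaves, at least 5.97-fold higher (adjusted p = 0.091). PC-58-3p had 17 and 11 reads in young leaves, against 0 and 1 in mature leaves, with a 95% counting interval of the ratio of 3.07 to 760 that covers counting error only. Lower in young leaves without overlap was PC-88-5p alone, at 13.37 and 12.82 CPM in young leaves, against 26.31 and 48.16 CPM in mature leaves (−1.49, adjusted p = 0.43).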

How the data were processed

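Small RNA values of 8 leaf libraries were deposited as 1 table, of which 4 libraries were compared. The labels' protocols name TRIzol, oligo(dT) beads and an Illumina HiSeq and describe no small RNA library. The submitters' processing notes name Bowtie 0.12.8. For the genome build, the miRBase release and the counting rule, nothing is given in the sources used here. Coordinates are as the table lists them, and no gene annotation was used. Raw reads, per the file headers, were taken as deposited estimated counts (80.5% whole within 1e-6) and rounded to whole numbers. The deposited normalized reads, a signal equal to raw reads times 1 constant per library, were not tested. The 101 sequences at more than 1 locus were taken once.

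Entries kept by filterByExpr (201 of 733) were scaled by TMM (factors 0.971 and 1.04 for the young libraries, 1.29 and 0.771 for the mature ones). They were tested with edgeR 4.0.16 in R 4.3.3 by the robust quasi-likelihood test, with 2 residual degrees of freedom, and two-sided p-values were adjusted over all entries by the Benjamini-Hochberg method. The standard error (SE) is the log2 fold change over the square root of F. Family sums count each sequence once. The method was tested on simulated data. Alternatives were other scalings and filters, DESeq2 1.42.0, limma 3.58.1, a replicate block, the 8-library fit and leaving out libraries. The comparison, the lists and the rules were chosen with earlier results of these data known. Named entries were the 30 called with the smallest p, the 10 largest non-overlapping differences each way, the 8 most abundant, 5 predicted entries each way, the most abundant of each listed family and the 6 largest arm shifts. Others were named for comparison after their values were seen.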

Additional observations from a re-analysis of the deposited data

How the results depend on the processing

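Among the 69 entries and 35 sums followed, those that passed the threshold (43 and 9) kept their direction in every alternative that tested them. Their groups do not overlap, which left little room for a change of sign. The 14 results that changed sign were all uncalled in the main fit. The number of entries called (43, with 13 higher and 30 lower) was 28 with RLE scaling (8 and 20), 22 with library size only (6 and 16), 5 when scaled to the conserved families (0 and 5), 4 in the fit of all 8 libraries (0 and 4) and 14 without the fragment-like families (4 and 10). It ranged between 0 and 91 when 1 library was left out. The number of sums called (9) was 19 with DESeq2 (4 higher and 15 lower) and 3 with all 8 libraries, and ranged between 0 and 35 when 1 library was left out. RLE scaling moved the median of all sums by −0.36 log2 units. The labels do not say what a replicate number marks, and the deviations of young 1 and mature 1 from their group means had a correlation of 0.0187 across entries. With the replicate block 26 entries were called (8 and 18).

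Leaving out 1 library gave ranges of −0.76 to 0.04 for miR2916-p3, −1.43 to 0.61 for miR395a and −1.15 to 0.40 for miR8155, and for the sums −2.27 to 0.15 for miR5072, −1.44 to 0.26 for miR395, −1.18 to 0.38 for miR8155 and −0.77 to 0.18 for miR2916, with the positive end without mature 1 and the negative end without mature 2. miR166a was at −0.08 without the fragment-like families, −0.05 without young 1, −0.03 without mature 1 and 0.54 without mature 2. miR159a was at 0.08 with library size only, 0.07 with a stricter filter, 0.10 with limma, 0.04 with all 8 libraries, 0.09 with the replicate block, 0.09 without young 1, −0.48 without mature 1 and 0.75 without mature 2. miR167d was at −0.28 without mature 1 and 0.02 without mature 2, and the miR319 sum at −0.01 without young 2 and 0.52 without mature 1. In the order RLE, library size only, conserved families, no filter, DESeq2 and every locus added, the miR164 sum was at −0.29, −0.13, −0.27, −0.19, −0.29 and −0.19, and the miR167 sum at −0.30, −0.04, −0.17, −0.20, −0.30 and −0.14. The miR164 sum was at −0.23 without young 1 and −0.36 without mature 2, and the miR167 sum at −0.14, −0.01 and −0.13 without young 1, young 2 and mature 1. The miR159 sum was at −0.25 with RLE and DESeq2, −0.03 with the conserved families, −0.15 with no filter, −0.12 with every locus, −0.17 without young 2, −0.39 without mature 1 and 0.68 without mature 2. The cause of these changes was not tested. Leaving out a library leaves 1 sample in its group, which is assumed to vary like the other group.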

Other observations

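Short entries were mostly lower in young leaves. Of 21 tested entries of 18 nt, 8 fell and 0 rose (19 below 0, median −1.10), and of 13 of 19 nt, 3 fell and 0 rose, against 30 lower and 13 higher of all 201. Apart from miR171u-p5, all of these called short entries belong to the fragment-like list described above. The 2 observations are therefore not separate. The summed share of 18 nt entries was 0.576% and 0.802% of reads in young leaves, against 1.86% and 0.92% in mature leaves, and that of 19 nt entries was 2.38% and 2.57% in young leaves, against 6.78% and 7.56% in mature leaves. Of 88 entries of 21 nt, 11 rose and 12 fell. The share of 24 nt entries was 0.312% and 0.238% of reads in young leaves, against 0.134% and 0.136% in mature leaves, and 1 of 20 tested rose. By first base, 4 of 40 tested entries that begin with A rose and 2 fell (15% called), and of 32 that begin with G 1 rose and 8 fell (28.1%). Of 35 that begin with C, 3 rose and 3 fell (17.1%), and of 94 that begin with T, 5 rose and 17 fell (23.4%). The share over all entries was 21.4%. Among entries with a family number, the share called was 43.8% of 32 marked as 5p (5 higher and 9 lower), 30% of 30 marked as 3p (3 higher and 6 lower) and 19.2% of 99 with no arm mark (4 higher and 15 lower), against 26.1% of all 161 tested. These differences were not tested.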
